A study of Mus musculus with 12 samples.

Results

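The 10 genes described here encode proteins of the smooth muscle contractile apparatus, together with 1 small muscle protein, and were chosen by name: Acta2, Actg2, Tagln, Cnn1, Tpm1, Tpm2, Myl9, Cald1, Myh11 and Mustn1. All 10 were found among the 16414 genes of the count table. RNA was sequenced from 3T3-L1, a line of mouse fibroblasts that serves as a preadipocyte model because it stores lipid after hormonal induction. The study asked what a raised level of miR-335-5p does in these cells, and the same libraries also show how the genes moved between days of differentiation.

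In all 12 libraries the fibroblasts were first lipofected for 48 h and then induced in medium with insulin, 3-isobutyl-1-methylxanthine, rosiglitazone and dexamethasone for 3 days. The medium held insulin alone for the next 2 days and no insulin on the last day, so time and the change of medium cannot be told apart. There were 4 groups of 3 libraries: cells with 20 nM miR-335-5p mimic at day 6, cells with a scrambled non-targeting mimic (NT mimic) at day 6, cells with miR-335-5p mimic at day 3, and cells with NT mimic at day 3. Cells that received the scrambled mimic are called NT cells. The labels call day 6 cells adipocytes and day 3 cells preadipocytes, and do not say whether replicates were separate cultures, so p-values here rest on a spread that may be technical. Uninduced cells were not analysed here.

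Smooth muscle shortens when myosin pulls on actin filaments, after a kinase has phosphorylated the regulatory light chain of that myosin. Tropomyosin, caldesmon and calponin lie along the actin filament and set how far myosin can reach it. The genes are classic targets of serum response factor (SRF), which binds a promoter element called the CArG box and in muscle works with the coactivator myocardin. Fibroblasts use related proteins in stress fibres, and the breakdown of these fibres is a known step of adipocyte conversion.

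The mimic sequence and its seed matches show which of the genes the microRNA could pair with. The mature mouse microRNA in RefSeq (GRCm38.p6, chr6:30741314-30741336, plus strand) is given with its seed, bases 2 to 8, in capitals. Matches to the seed were searched in the longest 3′ UTR annotated for a gene, on the transcript strand, in 3 forms. These pair with bases 2 to 8 (GCTCTTG), pair with bases 2 to 7 and have an A opposite base 1 (CTCTTGA), or do both over 8 bases.
mmu-miR-335-5p: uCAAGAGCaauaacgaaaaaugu
Cnn1 3′ UTR site: ggctggctgctGCTCTTGgctggacccagc
Mustn1 3′ UTR site: ttcctctgctgtCTCTTGAaccatcatgac
The match, in capitals, occurred in 2 of the 10 genes. The other 8 genes held none of the 3 forms, and the 8-base form was found in 0 of the 10. Over all 16023 genes with an annotated 3′ UTR, 20.7% held a match and 3.16% the 8-base form, so 2 of 10 is close to that share. A match is a description of the letters and not a shown target.

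Promoters from 250 bases before to 50 bases after the annotated start were available for 7 of the 10 genes (RefSeq, GRCm38.p6; Cald1 has 2). CArG boxes (CC, then 6 bases that are A or T, then GG) were searched on both strands, as were boxes with 1 of the 6 inner bases changed to C or G; changes in the outer CC and GG were not searched. The windows that held one are shown with the box in capitals, read on the strand of the gene, because SRF acts through this element.
Acta2, chr19:34255438-34255467, minus strand: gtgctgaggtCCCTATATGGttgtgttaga
Acta2, chr19:34255388-34255417, minus strand: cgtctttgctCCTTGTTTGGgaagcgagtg
Myl9, chr2:156775293-156775322, plus strand: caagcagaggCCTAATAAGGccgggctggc
Myl9, chr2:156775355-156775384, plus strand: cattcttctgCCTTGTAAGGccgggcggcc
Both Acta2 boxes had 1 changed base and began at positions -84 and -34 from the start. In Myl9 the box at -161 was complete and the one at -99 had 1 change. Neither form was found in the windows of Tpm1, Tpm2, Cald1, Cnn1 and Mustn1. Of 32851 promoters of this length in the reference, 1.63% held a complete box and 9.98% a complete box or one with 1 change.

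Total counts per library ran from 17.69 to 18.94 in units of 1e+06, and 12731 to 13646 genes had a count above 0. Levels are CPM, counts per 1e+06 after library scaling, and a fold change is the edgeR estimate on the log2 scale with its 95% interval. A gene was called when its adjusted p was below 0.01 in the edgeR quasi-likelihood test over 11703 genes. Of the 10 contractile genes, 7 passed the filter on low counts, and Actg2, Cnn1 and Myl9 did not. Acta2, Mustn1 and Tagln passed it through the day 6 groups, in which their counts are higher, so the filter kept them because of the days being compared. Libraries with the same replicate number resembled each other across groups, and replicate 1 stood apart for Myh11.

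Contractile genes did not move together between the days. Under either mimic, Acta2, Mustn1, Tpm1 and Cald1 were higher at day 6 than at day 3, Tpm2 was lower, and Myh11 and Tagln did not pass the test. Of the 10 genes, 7 were tested, and 4 of these were called higher and 1 lower under each mimic. Acta2 and Mustn1, 2 of the 4, passed the filter through their high groups, so nothing is read from this count. Over all tested genes, 18.2% were called higher and 16.5% lower under the miR-335-5p mimic, and 18.8% and 16.7% in these directions in NT cells. The genes that rose include both those already abundant at day 3 (Tpm1, Cald1) and those almost absent then (Acta2, Mustn1), as the plot of the 10 genes by library shows. Defining markers of smooth muscle were split: Tagln, Cnn1, Actg2 and Myl9 were under 1 CPM in every library and myocardin (Myocd) had 0 counts in all of them, but at day 6 Acta2 stood at 10.4 to 17.4 CPM, Myh11 at 7.67 to 18.1 CPM and the smoothelin gene Smtn at 50.3 to 95.4 CPM. In these bulk samples more cells that express a gene cannot be told apart from more RNA per cell.

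**Figure D1:**
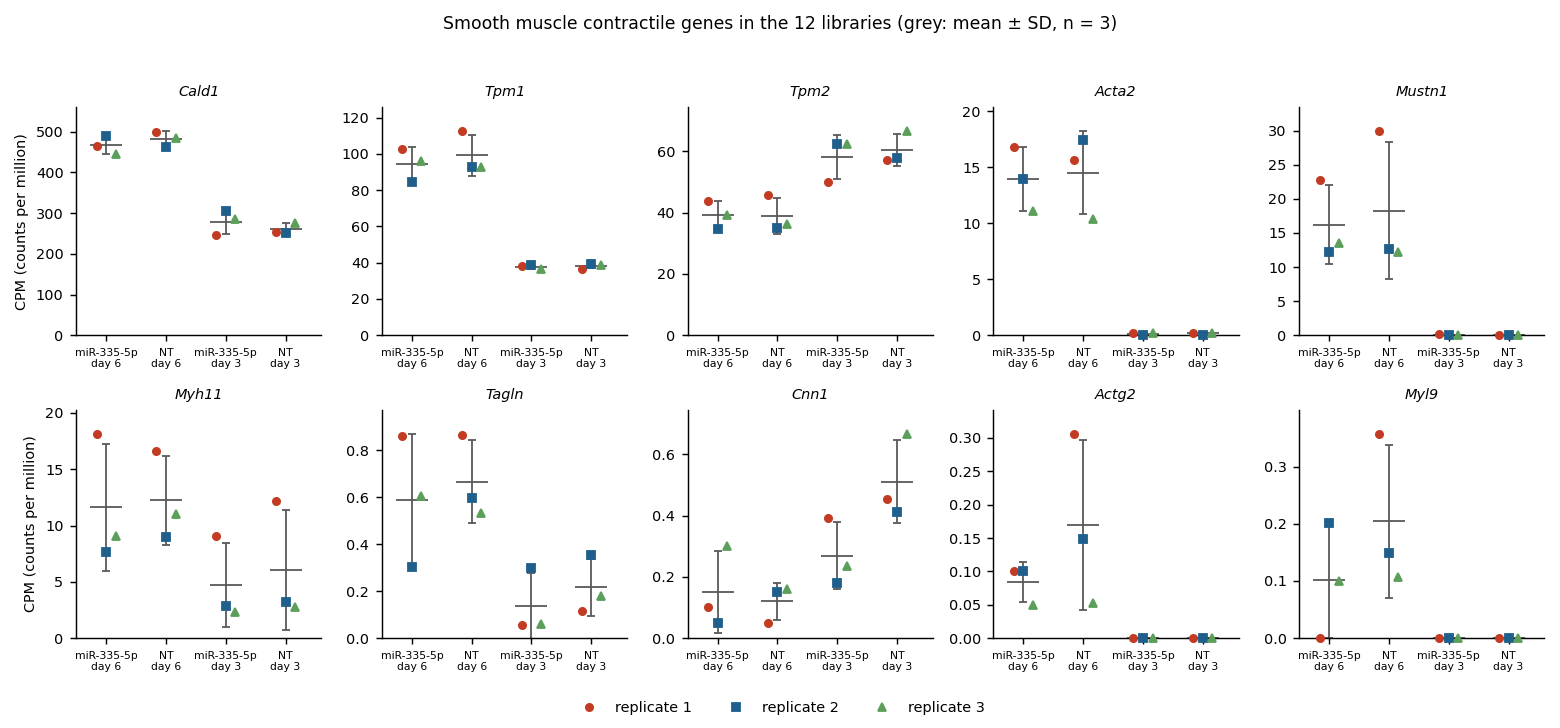
CPM (vertical axis, from 0, scaled per gene) of the 10 genes in the 12 libraries, by mimic and day; coloured points are libraries by replicate number and grey bars the mean ± SD of 3. Acta2 and Mustn1 lie near 0 in all 6 day 3 libraries, Tpm2 is lower at day 6, and replicate 1 is highest for Myh11 in all 4 groups.

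Acta2 encodes smooth muscle alpha-actin, the actin that marks smooth muscle cells and myofibroblasts. Under the miR-335-5p mimic its level was 16.8, 14.0 and 11.1 CPM at day 6, against 0.168, 0.0600 and 0.235 CPM at day 3. In NT cells the libraries stood at 15.7, 17.4 and 10.4 CPM at day 6 and at 0.227, 0.0587 and 0.242 CPM at day 3. Day 3 was thus almost empty of this transcript, with 830 counts at day 6 against 8 at day 3 in the miR-335-5p groups and 853 against 9 in the NT groups. The ratio of pooled, library-scaled counts was 90.0 (exact 95% interval 45.5 to 209) under the miR-335-5p mimic and 82.9 (43.5 to 182) in NT cells, where the interval covers counting error only. The edgeR adjusted p was 4.35e-07 under the miR-335-5p mimic and 4.09e-07 in NT cells, and no day 6 library came near a day 3 one.

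The enteric smooth muscle actin Actg2 was scarcely present. It had 2, 2 and 1 counts at day 6 under the miR-335-5p mimic and 6, 3 and 1 in NT cells, against 0 counts in all 6 day 3 libraries. Set against 3 counts over a group, the limit that a count of 0 allows, day 6 was at least 1.45-fold higher under the miR-335-5p mimic and at least 2.92-fold higher in NT cells, taking the day 6 counts as they are. Tested without the filter, the change had an edgeR adjusted p of 0.0866 under the miR-335-5p mimic and 0.0267 in NT cells and was not called. Muscle and cytoplasmic actins share nearly all of their protein sequence, and how the counting assigned reads that fit several of them is not given in the sources read, so the low actin levels are uncertain.

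Myosin II was represented by its smooth muscle heavy chain, Myh11, and its regulatory light chain, Myl9. Myh11 stood at 18.1, 7.67 and 9.06 CPM at day 6 and at 9.06, 2.82 and 2.35 CPM at day 3 under the miR-335-5p mimic. In NT cells it was 16.6, 9.0 and 11.0 CPM at day 6 and 12.2, 3.17 and 2.78 CPM at day 3. In every group replicate 1 was the highest, and replicate 1 of day 3 exceeded replicates 2 and 3 of day 6 under both mimics, so the days overlapped. Relative to the mean of replicates 2 and 3, replicate 1 was 2.16 times as high at day 6 and 3.51 times at day 3 in the miR-335-5p groups, and 1.66 times at day 6 and 4.11 times at day 3 in the NT groups.

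Without regard to the replicate number, the day change of Myh11 was 1.28 (95% interval -0.11 to 2.68; adjusted p = 0.114 by edgeR) with the miR-335-5p mimic and 1.01 (-0.37 to 2.39; adjusted p = 0.202) in NT cells. Single libraries moved it by more than 1.5 times. Under the miR-335-5p mimic it was 2.16 without day 3 replicate 1 and 0.81 without day 6 replicate 1, and in NT cells it was 2.03 without day 3 replicate 1 and 0.65 without day 3 replicate 3, with no call in any of these. Within each number day 6 was higher in all 6 pairs, by ratios of 2.00, 2.72 and 3.86 in miR-335-5p cells and of 1.36, 2.84 and 3.97 in NT cells. With replicate number as a block in the edgeR fit, Myh11 was called at 1.38 (0.83 to 1.92; adjusted p = 4.56e-04) under the miR-335-5p mimic and at 1.20 (0.67 to 1.73; adjusted p = 1.02e-03) in NT cells. That fit called 5 of the 7 tested genes higher and 1 lower under each mimic, beside 27.0% of tested genes higher and 24.7% lower under the miR-335-5p mimic and 27.5% and 24.3% in NT cells. Without replicate 1 in all groups, an alternative chosen after seeing the data, the change was 1.68 (edgeR adjusted p = 9.36e-05) under the miR-335-5p mimic and 1.73 (6.39e-05) in NT cells. What the replicate number stands for was not given, and its part in the level of Myh11 was not tested further.

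**Figure D2:**
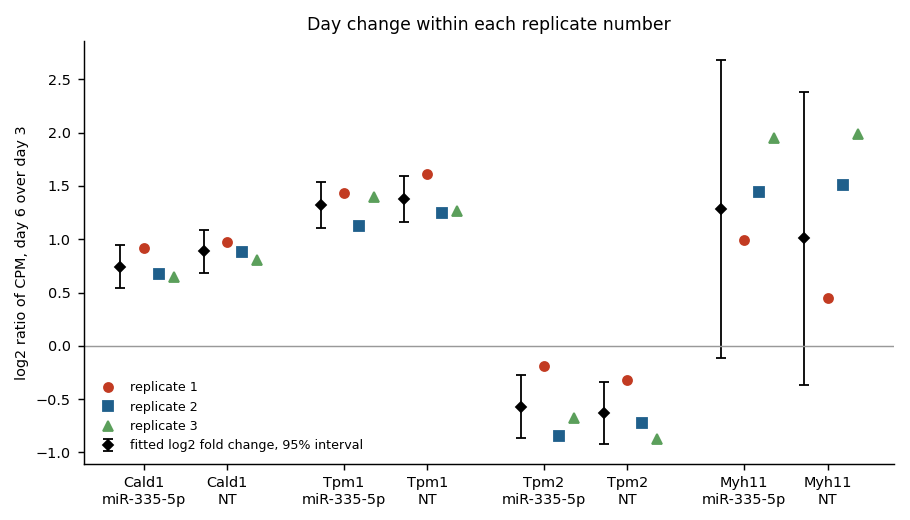
Log2 ratio of CPM, day 6 over day 3 (vertical axis), for Cald1, Tpm1, Tpm2 and Myh11 under both mimics; coloured points are the ratio within each replicate number and black diamonds the fitted change with its 95% interval. All 6 ratios of Cald1, Tpm1 and Myh11 are above 0 and all 6 of Tpm2 below, and the wide intervals of Myh11 contrast with its ratios.

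Myl9, whose product is phosphorylated to switch on smooth muscle myosin, had 0, 4 and 2 counts at day 6 under the miR-335-5p mimic and 7, 3 and 2 in NT cells. All 6 day 3 libraries had 0. Day 6 was at least 1.73-fold higher with the miR-335-5p mimic and at least 3.50-fold higher in NT cells, against 3 counts over the day 3 group and with the day 6 counts as they are. Without the filter the edgeR adjusted p was 0.110 under the miR-335-5p mimic and 0.0373 in NT cells, neither of them called. Its non-muscle counterparts in the same libraries were abundant: Myl12a averaged 282 ± 60.4 CPM and Myl12b 83.1 ± 2.76 CPM at day 6 under the miR-335-5p mimic (SD, n = 3), and neither passed the test of the day change.

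Caldesmon, Cald1, which binds actin and tropomyosin and restrains myosin, was the most abundant of the 10. It had 464, 489 and 445 CPM at day 6 against 246, 306 and 285 CPM at day 3 with the miR-335-5p mimic. The NT libraries had 499, 463 and 485 CPM at day 6 against 255, 251 and 277 CPM at day 3. No library of one day reached the range of the other. The change was 0.74 (0.54 to 0.94; edgeR adjusted p = 6.14e-05) under the miR-335-5p mimic and 0.89 (0.69 to 1.09; adjusted p = 1.72e-05) in NT cells. As ratios these are 1.67 for the miR-335-5p mimic and 1.85 for NT cells. Counts per gene do not separate the long form of smooth muscle from the short form of other cells, and the 5 annotated transcripts of Cald1 run from 2142 to 4777 bases. In the annotation Cald1 overlaps 3 noncoding genes on the other strand.

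The 2 tropomyosin genes of smooth muscle moved in opposite directions. Tpm1 had 102, 84.6 and 96.2 CPM at day 6 and 38.0, 38.7 and 36.5 CPM at day 3 under the miR-335-5p mimic, and 112, 92.9 and 92.5 CPM at day 6 and 36.7, 39.1 and 38.6 CPM at day 3 in NT cells. Its day 3 libraries were tightly grouped, and all lay below every day 6 library. The change was 1.32 (1.11 to 1.54; edgeR adjusted p = 1.52e-06) with the miR-335-5p mimic and 1.38 (1.17 to 1.59; adjusted p = 1.09e-06) in NT cells.

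Tpm2 had 43.8, 34.6 and 39.0 CPM at day 6 and 49.8, 62.4 and 62.3 CPM at day 3 with the miR-335-5p mimic. In NT cells it had 45.6, 34.9 and 36.3 CPM at day 6 and 57.1, 57.8 and 66.4 CPM at day 3. The days did not overlap, but replicate 1 had the highest level of its group at day 6 and the lowest at day 3 under both mimics. Tpm2 fell by 0.57 (interval of the change -0.86 to -0.28; edgeR adjusted p = 4.16e-03) with the miR-335-5p mimic and by 0.63 (-0.93 to -0.34; adjusted p = 2.21e-03) in NT cells. The call rested on single libraries: leaving out replicate 2 or 3 of either day moved the adjusted p to between 0.0138 and 0.0203 under the miR-335-5p mimic, and leaving out NT day 3 replicate 3 or NT day 6 replicate 2 or 3 moved it to between 0.0109 and 0.0121 in NT cells.

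The ratio of Tpm1 to Tpm2 counts within a library does not depend on library scaling. It was 2.34, 2.45 and 2.47 at day 6 and 0.763, 0.621 and 0.586 at day 3 under the miR-335-5p mimic, and 2.46, 2.66 and 2.55 at day 6 and 0.643, 0.677 and 0.581 at day 3 in NT cells. The replicates of a group lay close together and the days far apart. Smooth muscle and non-muscle tropomyosins are spliced from the same genes, with 16 annotated protein-coding transcripts for Tpm1 and 3 for Tpm2, and the counts do not tell which were made.

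Transgelin (Tagln) and calponin 1 (Cnn1), both actin-binding proteins used as markers of differentiated smooth muscle, were under 1 CPM in every library. Tagln had 17, 6 and 12 counts at day 6 and 1, 5 and 1 at day 3 under the miR-335-5p mimic, and 17, 12 and 10 at day 6 and 2, 6 and 3 at day 3 in NT cells. The fitted change was 2.06 (0.61 to 3.51; edgeR adjusted p = 0.0226) under the miR-335-5p mimic and 1.60 (0.26 to 2.93; adjusted p = 0.0460) in NT cells, and both missed the threshold. Without miR-335-5p day 3 replicate 2, the library with 5 counts, the change under that mimic became 3.21 and was called (adjusted p = 7.97e-03). In the annotation Tagln overlaps Pcsk7 and an antisense gene on the other strand, and whether counting used strand is not given in the sources used here.

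Cnn1 had 2, 1 and 6 counts at day 6 and 7, 3 and 4 at day 3 with the miR-335-5p mimic. In NT cells it had 1, 3 and 3 counts at day 6 and 8, 7 and 11 at day 3, where the days did not overlap. The ratio of pooled counts, day 6 over day 3, was 0.558 (exact 95% interval 0.213 to 1.38) with the miR-335-5p mimic and 0.235 (0.0863 to 0.557) in NT cells, for counting error only. Tested without the filter, the NT change had an edgeR adjusted p of 0.0243 and was not called.

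Mustn1 encodes a small protein first described in musculoskeletal tissue and is no part of the contractile filaments. It had 22.8, 12.2 and 13.6 CPM at day 6 with the miR-335-5p mimic, from 451, 241 and 270 counts, against 2, 0 and 1 counts at day 3. In NT cells it had 29.9, 12.7 and 12.3 CPM at day 6, from 587, 255 and 230 counts, against 1, 1 and 0 counts at day 3. The ratio of pooled counts was 278 (exact 95% interval 94.9 to 1351) with the miR-335-5p mimic and 469 (129 to 3876) in NT cells, for counting error only, and the edgeR adjusted p was 4.23e-06 for the miR-335-5p mimic and 3.17e-06 for NT cells. At day 6 replicate 1 was 1.77 times the mean of the other replicates in miR-335-5p cells and 2.39 times in NT cells.

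The genes next to each member in the annotation (GRCm38.p6) were looked at after the values were seen. Of 20 neighbours, all tested, 7 were called higher and 3 lower at day 6 in NT cells, beside 18.8% and 16.7% of all tested genes. Itih4 and Car9 among them passed the filter through day 6, where their counts are higher, so nothing is read from this count. Itih4, which lies beside Mustn1 and encodes a secreted protein of the inter-alpha-trypsin inhibitor family, had 63.4, 106 and 93.6 CPM at day 6 against 0.615, 0.420 and 0.352 CPM at day 3 with the miR-335-5p mimic. Its NT libraries had 55.1, 78.4 and 104 CPM at day 6 and 0.568, 0.352 and 0.302 CPM at day 3. Both genes were thus near 0 at day 3 and present at day 6, but replicate 1 was the highest day 6 library for Mustn1 and the lowest for Itih4. Stimate, on the other side of Mustn1, fell by 0.53 with the miR-335-5p mimic (edgeR adjusted p = 1.67e-03) and by 0.57 in NT cells (adjusted p = 1.05e-03).

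Acta2 lies between Stambpl1 and Fas, a deubiquitinase gene and the gene of a death receptor. Stambpl1 changed by 0.79 (edgeR adjusted p = 8.39e-04) with the miR-335-5p mimic and 0.94 (2.53e-04) in NT cells. Fas changed by 1.26 (edgeR adjusted p = 1.47e-03) with the miR-335-5p mimic and 1.15 (2.54e-03) in NT cells. Both were present at day 3, where the libraries held 7.75 to 10.6 CPM of Stambpl1 and 4.14 to 7.50 CPM of Fas, unlike Acta2. The talin genes, which link integrins to actin, lie beside the tropomyosin genes that moved apart: Tln2, next to Tpm1, changed by 0.94 with the miR-335-5p mimic (edgeR adjusted p = 1.14e-04) and by 1.03 in NT cells (5.79e-05). Tln1, next to Tpm2, changed by 0.45 (edgeR adjusted p = 7.83e-03) with the miR-335-5p mimic and 0.55 (2.46e-03) in NT cells, against the direction of Tpm2.

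**Figure D3:**
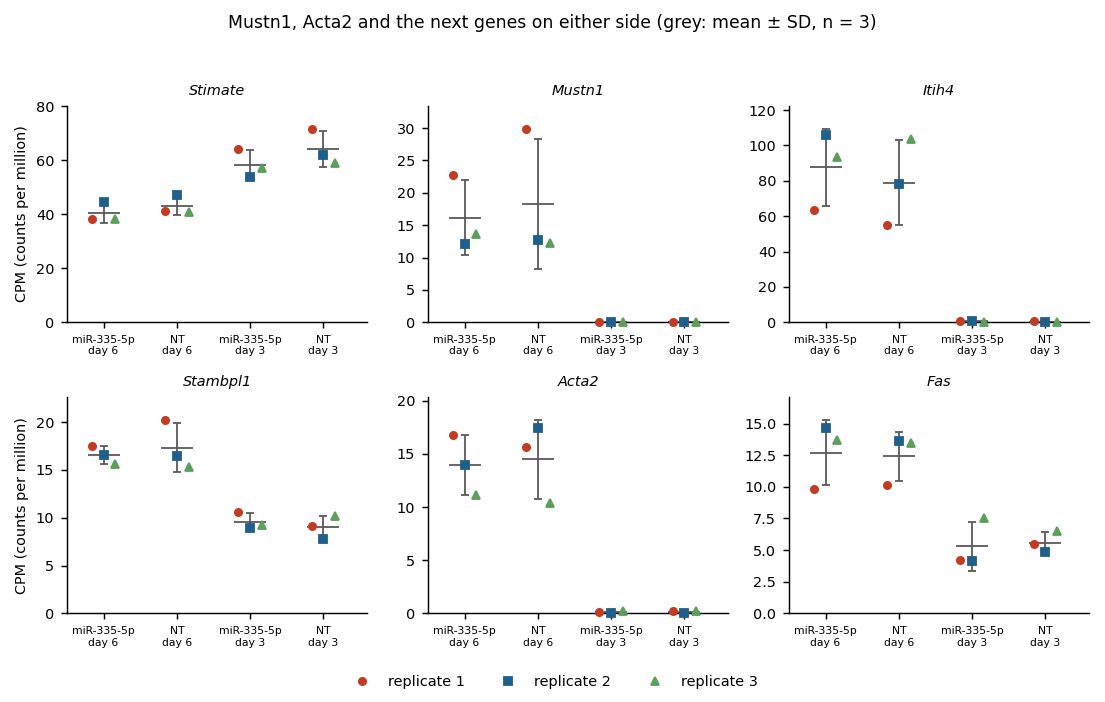
CPM (vertical axis, from 0, scaled per gene) of Mustn1 with its neighbours Stimate and Itih4, and of Acta2 with its neighbours Stambpl1 and Fas; points are libraries by replicate number and grey bars the mean ± SD of 3. Itih4 and Mustn1 are both near 0 at day 3, and their replicate 1 libraries take opposite ranks at day 6.

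Levels can be compared between genes only per length, and CPM were divided by the longest annotated protein-coding transcript for this. At day 6 in NT cells, Cald1 had 101 ± 3.82 CPM per kb, Tpm1 34.3 ± 3.91, Tpm2 17.9 ± 2.68, Mustn1 14.8 ± 8.13, Acta2 7.12 ± 1.81 and Myh11 1.87 ± 0.604 CPM per kb, and Tagln led the other 4 genes at 0.417 ± 0.110 (SD, n = 3). The libraries of Tpm2 and Mustn1 overlapped, as did those of Myl9 with Actg2 and of Actg2 with Cnn1. At day 3 in NT cells the order was Cald1 (54.6 ± 2.95 CPM per kb), Tpm2 (27.8 ± 2.38), Tpm1 (13.2 ± 0.438) and Myh11 (0.925 ± 0.815), ahead of Cnn1, Tagln, Acta2 and Mustn1, whose libraries overlapped in turn. By the longest transcripts Tpm1 thus stood above Tpm2 at day 6 and below it at day 3, and likewise with the shortest transcripts (112 against 33.5 CPM per kb at day 6, 43.0 against 51.9 at day 3). With the shortest transcript of Tpm1 and the longest of Tpm2, Tpm1 stood above at day 3 as well (43.0 against 27.8). The day 3 order therefore depends on the lengths used. Which isoforms were made on each day was not measured. The first 6 places were the same with the miR-335-5p mimic on day 6, and the first 4 on day 3.

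Between the mimics, no contractile gene was called. At day 6, 0 of the 7 tested genes were called, beside 0% of the 11703 genes tested by edgeR (21 genes at an unadjusted p below 0.05). At day 3 it was again 0 of 7 and 0% (59 genes at an unadjusted p below 0.05), and the difference of the day change between mimics called 0 of 7 and 0% (29 genes at an unadjusted p below 0.05). DESeq2 also called 0 genes in these comparisons.

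The intervals of the main fit, which leaves out the replicate number, say how large a mimic difference that fit allows. At day 6, Cald1 differed by -0.049 (95% interval -0.25 to 0.15), Tpm1 by -0.072 (-0.28 to 0.14) and Tpm2 by 0.0062 (-0.29 to 0.30), miR-335-5p minus NT mimic on the log2 scale. Acta2 differed by -0.054 (-0.61 to 0.50), Mustn1 by -0.18 (-0.97 to 0.62), Tagln by -0.18 (-1.32 to 0.97) and Myh11 by -0.075 (-1.41 to 1.26) at day 6. All of these intervals included 0, and those of the 3 abundant genes were narrow while those of Myh11 and Tagln were wide. At day 3 the differences were 0.096 (-0.10 to 0.30) for Cald1, -0.015 (-0.23 to 0.20) for Tpm1, -0.055 (-0.35 to 0.24) for Tpm2 and -0.35 (-1.77 to 1.07) for Myh11. Acta2, Mustn1 and Tagln had too few counts at day 3 for a fold.

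Within replicate numbers, Myh11 at day 3 was lower with the miR-335-5p mimic in 3 of 3 pairs, at 0.742, 0.890 and 0.844 of the NT level. With replicate number as a block within day 3, its difference was -0.33 (-0.63 to -0.037) with an unadjusted p of 0.0295 and an edgeR adjusted p of 0.625, so it was not called. At day 3 that edgeR fit gave 852 of 11703 genes an unadjusted p below 0.05. The same fit called 4 genes lower at day 3, Cyp2f2, Acvrl1, Angpt4 and 1 gene without a matched symbol, none of them a contractile gene.

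Of the 2 genes with a seed match, Mustn1 at day 6 stood at 0.763, 0.960 and 1.11 of the NT level within replicate numbers, on both sides of 1. Cnn1 had 9 counts at day 6 and 14 at day 3 with the miR-335-5p mimic, and 7 at day 6 and 26 at day 3 in NT cells. At day 3 Cnn1 was lower with the miR-335-5p mimic in each replicate number, with 7, 3 and 4 counts against 8, 7 and 11. Mustn1 was not called at day 6 and had too few counts at day 3 for a fold. Cnn1 did not pass the filter and was no part of the main edgeR comparison of mimics. DESeq2, run without that filter, did not call Cnn1 on either day (unadjusted p = 0.260 at day 3 and 0.728 at day 6).

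**Figure D4:**
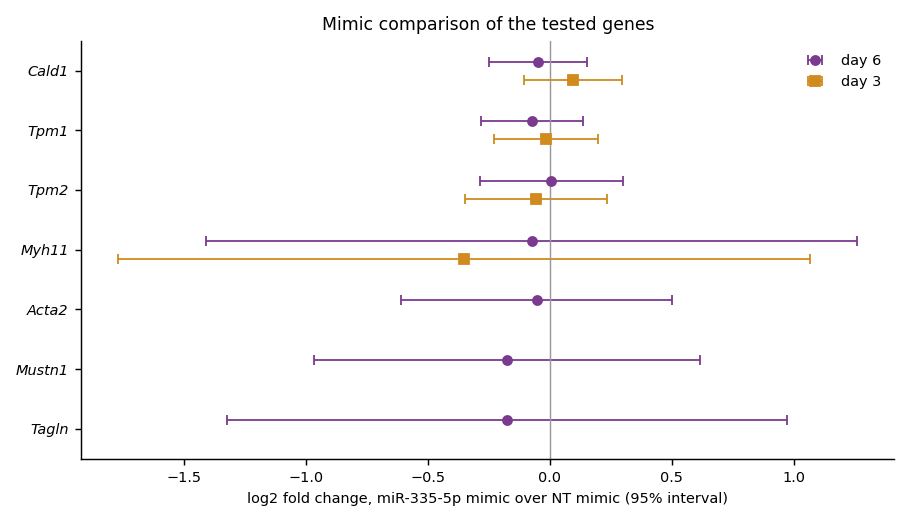
Log2 fold change, miR-335-5p over NT mimic (horizontal axis), with 95% intervals for the 7 tested genes at day 6 (circles) and for Cald1, Tpm1, Tpm2 and Myh11 at day 3 (squares). All intervals are from the fit without a replicate block and include 0. Those of Cald1, Tpm1 and Tpm2 stay within -0.35 and 0.30, and those of Myh11 are the widest.

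Non-muscle relatives of the contractile proteins, which build the stress fibres of fibroblasts, were mostly higher at day 6. Of 13 such genes 12 were tested, and 9 were called higher and 0 lower with each mimic. Among all tested genes, 18.2% were called higher and 16.5% lower under the miR-335-5p mimic, and 18.8% and 16.7% in NT cells. The median change of these relatives was 0.95 under the miR-335-5p mimic and 0.89 in NT cells. Medians over all tested genes were 0.019 under the miR-335-5p mimic and 0.029 in NT cells. Tpm4, a short tropomyosin, had 407, 384 and 399 CPM at day 6 and 167, 228 and 208 CPM at day 3 with the miR-335-5p mimic, a change of 0.98, and its NT change was 1.05. Tpm3 changed by 0.62 with the miR-335-5p mimic and 0.69 in NT cells. Actb, cytoplasmic beta-actin, had 1575, 1511 and 1437 CPM at day 6 and 602, 749 and 716 CPM at day 3 with the miR-335-5p mimic, and changed by 1.13 with this mimic and by 1.11 in NT cells. The 3 genes that were tested and not called were Myh10, Myl12a and Myl12b. Tpm2 was thus called lower at day 6 while Tpm1, Tpm3 and Tpm4 were called higher. With libraries scaled by total counts alone no called gene of these lists changed sign, and Tpm2 was then not called under the miR-335-5p mimic.

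Of 21 other cytoskeletal genes known from smooth muscle, 20 were in the table and 16 were tested. Under the miR-335-5p mimic 9 were called higher and 0 lower, beside 18.2% and 16.5% of all tested genes. In NT cells 9 were called higher and 3 lower, beside 18.8% and 16.7%. Median changes were 0.61 under the miR-335-5p mimic and 0.64 in NT cells. Fhl2 and Lmod1 passed the filter through day 6, where their counts are higher, so nothing is read from these counts and medians. Flna, the filamin that crosslinks actin, had 291, 191 and 228 CPM at day 6 against 40.3, 21.4 and 32.9 CPM at day 3 with the miR-335-5p mimic, a change of 2.90, and its NT change was 3.06. Fhl2, a LIM protein that binds SRF, averaged 6.44 ± 2.93 CPM at day 6 and 0.133 ± 0.127 CPM at day 3 with the miR-335-5p mimic (SD, n = 3). Actn1, the alpha-actinin of stress fibres, changed by 0.62 with the miR-335-5p mimic and by 0.60 in NT cells. Csrp2 and Vcl had edgeR adjusted p of 0.0105 and 0.0112 under the miR-335-5p mimic and were among the genes called lower in NT cells, with changes there of -0.92 and -0.35. With libraries scaled by total counts alone, 1 gene of this list was called lower in NT cells, and with the replicate block 3 were called lower under the miR-335-5p mimic.

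The gene of the kinase that phosphorylates the myosin light chain rose. Mylk had 140, 194 and 217 CPM at day 6 and 24.4, 33.9 and 34.3 CPM at day 3 under the miR-335-5p mimic, and 148, 229 and 241 CPM at day 6 and 30.3, 43.5 and 41.3 CPM at day 3 in NT cells. Its change was 2.57 (edgeR adjusted p = 8.94e-06) with the miR-335-5p mimic and 2.42 (1.25e-05) in NT cells. Of the 14 genes of myosin light chain phosphorylation and RhoA signalling, 12 were tested, with 3 called higher and 3 lower under each mimic (4 higher and 1 lower with libraries scaled by total counts alone). Over all tested genes, 18.2% were called higher and 16.5% lower under the miR-335-5p mimic, and 18.8% and 16.7% in NT cells. The median change of this list was -0.20 under the miR-335-5p mimic and -0.16 in NT cells. Arhgap1 and Rock2 were the others that rose, by 0.49 and 0.36 with the miR-335-5p mimic. Rhob, a GTPase induced early by growth signals, had 271, 299.6 and 268 CPM at day 6 and 833, 749 and 772 CPM at day 3 with the miR-335-5p mimic, a change of -1.49, and Ppp1r12c (-0.58) and Rock1 (-0.41) were also called lower. The myosin phosphatase inhibitor Ppp1r14a had 0 counts in all 12 libraries, which allows up to 3 counts over each group.

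Of the listed regulators of these genes in muscle, none was called higher in the main fit. Myocd (myocardin) and Mef2c had 0 counts in all 12 libraries. Srf averaged 37.9 ± 2.15 CPM at day 6 and 42.6 ± 3.42 CPM at day 3 with the miR-335-5p mimic (SD, n = 3) and was not called with either mimic. Of 12 SRF-related regulators 9 were tested, and 0 were called higher and 3 lower with each mimic (1 higher and 4 lower without replicate 1). The main fit called 18.2% of all tested genes higher and 16.5% lower under the miR-335-5p mimic, and 18.8% and 16.7% in NT cells. Tead4 had 26.7, 40.8 and 42.4 CPM at day 6 against 159, 153 and 175 CPM at day 3 with the miR-335-5p mimic, a change of -2.15. Mef2d (-1.09) and Tead1 (-0.93) were called lower as well, and their NT changes were -1.13 and -0.94. The SRF coactivators Mrtfa and Mrtfb changed by -0.53 and 0.13 under the miR-335-5p mimic and were not called.

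Other genes known to respond to SRF or YAP moved in both directions. Of 13 such genes 11 were tested. Under the miR-335-5p mimic 4 were called higher and 3 lower, beside 18.2% and 16.5% of all tested genes. In NT cells 4 were called higher and 4 lower, beside 18.8% and 16.7%. Thbs1 (thrombospondin 1) changed by 3.73, Ccn1 by 2.31 and Tgfb1i1, which encodes the focal adhesion protein Hic-5, by 2.27 with the miR-335-5p mimic. Fosl1 (-2.81) and Amotl2 (edgeR adjusted p = 3.35e-04) were among those called lower with this mimic.

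**Figure D5:**
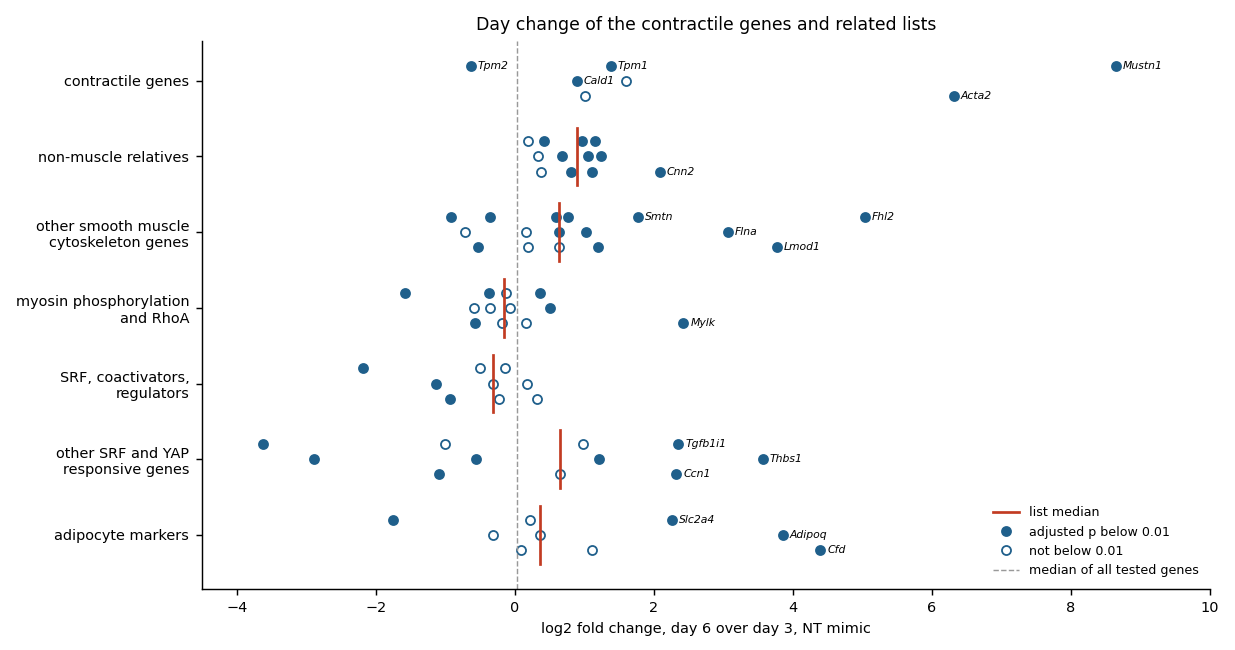
Log2 fold change, day 6 over day 3 in NT cells (horizontal axis), of every tested gene in 7 lists; filled points had an adjusted p below 0.01, red lines are list medians (none is drawn for the contractile genes, some of which passed the filter through their high group) and the dashed line is the median of all tested genes. The values of Acta2 and Mustn1 depend on the prior count because day 3 was almost empty of them. Fhl2 and Lmod1, among the other smooth muscle cytoskeletal genes, also passed the filter through day 6, so nothing is read from the median of that list. Of 12 non-muscle relatives, 9 are filled and to the right of 0, beside 18.8% of all tested genes called higher.

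CArG boxes were also searched in the promoters of these lists. A complete box was found for 3 of 12 non-muscle relatives with a promoter (Cnn2, Myl6 and Actg1) and for 1 of 8 regulators, Srf. Among 17 other smooth muscle cytoskeletal genes, 4 held one. Of these, Fhl2 and Filip1l were called higher with both mimics, Vcl lower in NT cells only (-0.35), and Fhl1 was not called. A complete box was found for 0 of 13 genes of myosin light chain phosphorylation and RhoA signalling with a promoter. It was also found for 0 of 7 other SRF or YAP responsive genes. The share over all promoters in the reference was 1.63%, counted per promoter, whereas the list counts are per gene. Whether a box went with a day change was not tested. Cnn2, a calponin of non-muscle cells, held CCTTATAAGG at -56 and averaged 39.7 ± 7.99 CPM at day 6 and 10.3 ± 3.76 CPM at day 3 with the miR-335-5p mimic (SD, n = 3). The promoters of Tpm1, Tpm2 and Cald1 held none, and they moved in both directions.

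Markers of other cell types were read beside these results. The summed level of the skeletal and cardiac muscle markers, 16 of 22 of which were in the table, was 14.7 to 23.8 CPM at day 6 and 7.08 to 10.1 CPM at day 3 with the miR-335-5p mimic, and 14.3 to 27.0 CPM at day 6 and 7.93 to 9.73 CPM at day 3 in NT cells. Most of it was desmin (Des), which averaged 15.4 ± 4.76 CPM at day 6 and 6.71 ± 1.55 CPM at day 3 with the miR-335-5p mimic (SD, n = 3). Acta1 and Tnnt2 were called higher and Mylpf lower, with group means of at most 1.18 CPM. All of them passed the filter through the day in which their counts are higher, so nothing is read from these calls. Myh4 and Ttn had 0 and 1 counts in all libraries. In the pericyte and mural list, with 7 of 8 genes in the table, the sum was 88.4 to 119 CPM at day 6 and 4.92 to 13.8 CPM at day 3 with the miR-335-5p mimic, and 89.3 to 135 CPM at day 6 and 8.04 to 13.1 CPM at day 3 in NT cells. Most of it was Pdgfrb and Mcam. Pdgfrb had 66.6, 78.6 and 112 CPM at day 6 and 6.99, 2.16 and 7.39 CPM at day 3 with the miR-335-5p mimic. Mcam had 23.6, 8.13 and 4.83 CPM at day 6 and 5.87, 2.34 and 1.23 CPM at day 3 with this mimic and was highest in replicate 1 of every group, whereas the pericyte genes Rgs5, Abcc9 and Higd1b were at or near 0.

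Endothelial markers summed to at most 1.72 CPM and macrophage and blood markers to at most 12.5 CPM in any library, and both sums were higher at day 6. Cd14 and Cd68 made up most of the macrophage and blood sum, and Cd68 was highest in replicate 1 of every group. The sum of the adipocyte markers was high on both days. It was 7119 to 10496 CPM at day 6 and 6704 to 8454 CPM at day 3 with the miR-335-5p mimic, and 7099 to 9689 CPM at day 6 and 6611 to 8653 CPM at day 3 in NT cells. Most of it at day 3 was Fabp4 and Cidec, which averaged 3373 and 3244 CPM with the miR-335-5p mimic. In the same group Cebpa averaged 8.26 CPM, Slc2a4 20.1 CPM and Cfd 29.1 CPM. Of 10 adipocyte markers 9 were tested. With the miR-335-5p mimic Adipoq (3.98), Cfd (4.54) and Slc2a4 (2.31) were called higher and Cidec (-1.60) lower (6 higher and 1 lower with the replicate block). Under this mimic 18.2% of all tested genes were called higher and 16.5% lower, and 27.0% and 24.7% with the block. The part of any other cell type in the contractile genes was not tested.

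The genes most like the contractile set were sought over the 12 libraries, as a description. The mean standardised log2 CPM of the 7 tested members correlated most with Slc41a2 (Pearson r = 0.992, Spearman rho = 0.937), Glb1 (0.990 and 0.909), Gdf15 (0.988 and 0.957), Armcx1 (0.988 and 0.909) and C1qtnf1 (0.987 and 0.944), and all points share the split between days. Against the mean of the other 6 members, Tpm1 had r = 0.977 (rho = 0.888) and Tpm2 r = -0.848 (rho = -0.706). Acta2, Mustn1 and Tagln entered these means and passed the filter through day 6, where their counts are higher. Nothing is therefore read from these correlations. For deviations from the group means, where only the replicates differ, the closest were Erg28 (0.978 and 0.958), Slc25a1 (0.970 and 0.902), Hsp90b1 (0.967 and 0.923), Slc41a2 (0.966 and 0.888) and Nfkbib (0.965 and 0.923). There, against the mean of the other members, Tpm1 had 0.798 and 0.734, Tpm2 0.720 and 0.629, Mustn1 0.504 and 0.35, and Tagln 0.307 and 0.196. Myh11 (0.117 and -0.084), Acta2 (0.035 and -0.056) and Cald1 (-0.018 and 0.021) were near 0.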

How the data were processed

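RNA-seq was analysed in 12 libraries of 3T3-L1 cells, 3 for each combination of 2 mimics and 2 days. The deposited values are expected counts per gene, not normalized; HISAT2 2.2.1, RSEM 1.3.1 and mm39 are named in the submitters' processing notes, without their roles. The annotation, strand use and any filter were not given in the sources used here. Values were rounded to whole numbers (3.37% were not whole). Gene identifiers were matched to symbols for 16387 of 16414 genes. Genes were filtered with filterByExpr, libraries were scaled by TMM, and all 12 libraries entered 1 edgeR 4.0.16 quasi-likelihood fit (R 4.3.3) with Benjamini-Hochberg adjustment and a threshold of 0.01. That scaling was used for CPM. Intervals of pooled counts are exact (Clopper-Pearson), and a count of 0 was set to 3 counts over a group; both cover counting error only. The script was tested on simulated counts.

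Whether replicate numbers pair the samples was checked from the deviations from group means: for libraries that share a number, r was 0.485 to 0.825 on the same day, 0.253 to 0.541 between days, and 12 of 12 libraries were closest to one with their own number. The pairing comes from these data, as no label explains the numbers. Alternatives were DESeq2 1.42.0, other scaling, no filter, a replicate block, fits of the 2 groups compared, and leaving out libraries. The members and lists were chosen with earlier results of these data known. Named genes were all 10 members and, of each list, up to 3 called genes in each direction with the lowest adjusted p at day 6 against day 3 with the NT mimic. Some genes that this rule names are not reported here. Cnn2, Myh10, Myl12a, Myl12b, Srf, Mrtfa, Mrtfb, Myocd, Mef2c, Ppp1r14a, the markers near 0, Cd68, Mcam, Smtn and the neighbouring genes were named for their role or after their values were seen. So were Fhl1, Filip1l, Lmod1, Fabp4 and Cebpa. Transcript lengths and UTRs are from GENCODE on GRCm38.p6, another build than that of the counts, so positions are only those of the reference.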

Additional observations from a re-analysis of the deposited data

How the results depend on the processing

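Acta2, Mustn1, Tpm1 and Cald1 were called higher at day 6 under every alternative run, with both mimics. The lower call of Tpm2 was lost in several. Of the 7 tested genes, 0 were called lower with the miR-335-5p mimic when libraries were scaled by total counts alone (Tpm2 -0.40, adjusted p = 0.0148 by edgeR) or when only the 2 groups compared were fitted (-0.57, adjusted p = 0.0103), and 0 to 1 when single libraries were left out, under either mimic (Tpm2 from -0.68 to -0.49 with the miR-335-5p mimic and from -0.76 to -0.56 in NT cells). The number called higher ran from 4 to 5 with the miR-335-5p mimic, because Tagln joined without miR-335-5p day 3 replicate 2 (3.21). Scaling by total counts alone moved the median of all tested genes by 0.16 with the miR-335-5p mimic and 0.17 in NT cells, and the calls over all genes to 2894 higher and 1162 lower and to 3008 higher and 1160 lower, against 2135 and 1926, and 2206 and 1957, with TMM.

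The replicate block changed the call of Myh11 (1.38 with the miR-335-5p mimic and 1.20 in NT cells, both called) and of no other of the 10 genes. With the block within each day, 4 genes were called between mimics at day 3. Differences between mimics changed sign when libraries were left out, singly or as replicate 1 of all groups. At day 3 they ran from -0.053 to 0.0033 for Tpm1, from -0.12 to 0.042 for Tpm2 and from -1.23 to 0.68 for Myh11. At day 6 they ran from -0.25 to 0.10 for Acta2, from -0.55 to 0.13 for Tagln, from -0.14 to 0.026 for Tpm1, from -0.082 to 0.14 for Tpm2, from -0.55 to 0.21 for Myh11 and from -0.51 to 0.37 for Mustn1. Without replicate 1, chosen after seeing the data, Tpm2 was at 0.000124 at day 3 and Mustn1 at 0.051 at day 6. None of these was called, and the cause was not tested. Where a left-out library leaves 2 in a group, the spread is shared with the other groups. Actg2, Myl9, Cnn1 and Tagln had too few counts for a precise fold.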
